A study of Mus musculus with 4 samples.

Results

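The Igf2-H19 and Cdkn1c domains are neighbouring imprinted regions of mouse chromosome 7. They are followed here through 7 genes chosen by name, namely Igf2, H19, Cdkn1c, Phlda2, Slc22a18, Kcnq1ot1 and Ascl2. Of these, 6 were found by amplicon name among the 23930 amplicons of the deposited table, and Kcnq1ot1 was not analysed here. The genes were proposed with the difference between mutant and control libraries already in view. That difference is therefore given for them as a description with no test.

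The libraries come from primary progenitor cells of subcutaneous tissue of C57BL/6 mice whose Gnas alleles are floxed. Gnas codes for Gs alpha, the G protein subunit that stimulates cAMP production. The mutant group (genotype Gnas-/-, 2 libraries) was infected with Ad-Cre, an adenovirus that carries the Cre recombinase, and the control group (genotype wild type, 2 libraries) with Ad-GFP. Both groups then spent 7 days in osteogenic medium, and RNA was read with an Ion AmpliSeq panel that amplifies a short target per gene. The virus differs together with the genotype, so their effects cannot be told apart. Whether the libraries within a group are from different animals or cell cultures is not stated in the labels. Gnas itself was not analysed here, so the genotype labels were not checked by the targeted gene.

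Imprinted genes are expressed from the copy inherited from one parent only. In the Igf2-H19 domain, the growth factor gene Igf2 is expressed from the paternal chromosome and the noncoding RNA gene H19 from the maternal one. A control region beside H19 carries DNA methylation on the paternal copy and binds the insulator protein CTCF on the maternal copy, which decides which gene reaches shared enhancers. In the neighbouring domain the noncoding RNA Kcnq1ot1 is made from the paternal chromosome and silences Cdkn1c, Phlda2, Slc22a18 and Ascl2 there, so that these are expressed from the maternal copy. Such genes are known for high expression before birth and for steering growth. The reads give the sum of both alleles in an inbred strain, so the parental origin named for each gene is background knowledge and was not measured.

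In the mutant libraries H19, Igf2 and Cdkn1c all stood above both controls, whichever parental copy they are known to be expressed from. Igf2 averaged 87.9 ± 65.9 RPM in mutants and 0.362 ± 0.407 RPM in controls (RPM is reads scaled by the library's total, mean ± SD, n = 2 libraries each). H19 averaged 772 ± 590 RPM in mutants and 23.2 ± 28.4 RPM in controls, and Cdkn1c 66.2 ± 29.9 RPM in mutants and 6.19 ± 0.675 RPM in controls. Slc22a18 overlapped between the groups, Ascl2 stayed below 1 RPM in every library, and Phlda2 had no read in any.

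H19 and Igf2 are also the hosts of microRNAs that lie inside them on the same strand. They are shown because they lie within genes whose RNA levels are given below. Whether the amplicon reads come from transcripts that contain them was not examined. The panel does not measure the mature microRNAs. Sequences are from RefSeq (GRCm38.p6), 5′ to 3′, with the seed (bases 2 to 8) in capitals. The miR-675 hairpin lies at chr7:142577064-142577147 (minus strand) within H19, and the miR-483 hairpin at chr7:142654924-142654996 (minus strand) within Igf2. The 4 seeds differ from each other.
mmu-miR-675-5p: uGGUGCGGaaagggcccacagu
mmu-miR-675-3p: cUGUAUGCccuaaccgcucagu
mmu-miR-483-5p: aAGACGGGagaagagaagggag
mmu-miR-483-3p: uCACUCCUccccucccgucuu

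Igf2 is read from several alternative starts, and RefSeq lists 4 promoter windows for it (250 bases before to 50 after the start). Of the 7 genes 5 have such windows, 8 windows in all. H19 and Cdkn1c have none in the table used. CpG dinucleotides, the sites of the methylation that marks imprinted copies, are counted because they differ widely between these promoters. Over 32851 windows of that length in RefSeq the median count was 7 CpGs, with quartiles of 3 and 20. The Igf2 windows held 2, 14, 24 and 7 CpGs from the most upstream start to the most downstream one. Phlda2 held 26, Ascl2 23, Kcnq1ot1 9 and Slc22a18 2.

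The windows below are the extremes for Igf2, with those of Phlda2, which had no read, and Slc22a18, which had reads in all libraries. They are GRCm38.p6 sequences, 5′ to 3′ along each gene, with CpGs in capitals. They lie at chr7:142666767-142667066 (minus strand, most upstream Igf2 start), chr7:142658755-142659054 (minus strand, the third Igf2 start), chr7:143502475-143502774 (minus strand, Phlda2) and chr7:143473539-143473838 (plus strand, Slc22a18).
Igf2, most upstream start: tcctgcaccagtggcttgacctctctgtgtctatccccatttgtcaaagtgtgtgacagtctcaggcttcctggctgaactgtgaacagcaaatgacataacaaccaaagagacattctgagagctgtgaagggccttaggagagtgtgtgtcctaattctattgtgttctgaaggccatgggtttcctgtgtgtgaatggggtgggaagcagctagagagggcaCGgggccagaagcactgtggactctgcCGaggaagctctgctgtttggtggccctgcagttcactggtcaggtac
Igf2, the third start: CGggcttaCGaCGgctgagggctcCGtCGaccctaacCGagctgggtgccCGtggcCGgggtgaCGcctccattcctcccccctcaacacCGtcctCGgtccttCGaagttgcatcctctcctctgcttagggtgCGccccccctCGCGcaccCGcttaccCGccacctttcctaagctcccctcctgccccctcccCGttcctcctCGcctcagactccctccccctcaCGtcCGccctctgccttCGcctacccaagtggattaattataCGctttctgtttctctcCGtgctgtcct
Phlda2: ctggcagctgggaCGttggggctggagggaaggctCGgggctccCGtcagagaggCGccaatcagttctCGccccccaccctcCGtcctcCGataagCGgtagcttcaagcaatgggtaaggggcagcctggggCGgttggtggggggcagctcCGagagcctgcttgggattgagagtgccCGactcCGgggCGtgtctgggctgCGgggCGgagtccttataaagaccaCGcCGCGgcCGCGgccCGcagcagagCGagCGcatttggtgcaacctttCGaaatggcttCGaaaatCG
Slc22a18: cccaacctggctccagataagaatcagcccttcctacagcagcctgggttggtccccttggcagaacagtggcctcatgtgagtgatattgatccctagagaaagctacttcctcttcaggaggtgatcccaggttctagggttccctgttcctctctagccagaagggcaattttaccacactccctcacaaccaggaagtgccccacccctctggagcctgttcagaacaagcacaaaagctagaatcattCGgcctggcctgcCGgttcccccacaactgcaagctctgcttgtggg

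Exact motifs were searched on both strands of the 8 windows. The TATA box TATAAA was found only in Phlda2, with its first base 30 bases before the start (13.6% of all windows hold it). The GC box GGGCGG was found in 4 windows, the third and the fourth of Igf2 and those of Phlda2 and Ascl2, against 35.7% of all windows. The CCAAT box CCAAT was found in 4 windows, the fourth of Igf2 and those of Kcnq1ot1, Phlda2 and Ascl2, against 37.4% of all windows. The full cAMP response element TGACGTCA (1.79% of all windows) and the Gli motif GACCACCCA (0.253% of all windows) were in none of the 8. No motif matches overlapped each other. A match or its absence describes these letters in these windows only.

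The libraries held 17460018 and 14847959 reads in mutants 1 and 2, and 18455811 and 13483518 reads in controls 1 and 2, as recovered from the RPM steps. A value of 0 allows up to 3 reads, or 0.163 to 0.222 RPM depending on the library, and such limits cover counting error only. The controls differed from each other more than the mutants did, with Pearson's r of 0.916 between controls and 0.981 between mutants across 11638 tested genes (log2 values, genes are not replicates). Of 12 stromal progenitor markers 11 had an amplicon, and they summed to 30701 and 33801 RPM in mutants and 13932 and 17119 RPM in controls. Most of that sum came from Col1a1, Col1a2 and Thy1, while Dcn was lower in mutants (471 and 316 RPM) than in controls (525 and 760 RPM), and Pdgfrb, Ly6a and Eng overlapped. Control 2 stood apart, with 979 RPM over 10 macrophage markers against 30.013 and 16.4 RPM in mutants and 49.5 RPM in control 1. Xist, expressed from the inactive X chromosome of females, was at 395 and 419 RPM in mutants and at 165 and 0 RPM in controls, while the Y-linked Ddx3y was at 26.9 and 12.5 RPM in mutants and at 61.4 and 124 RPM in controls. Both mutants and control 1 thus held Xist and Y-linked RNA together, and control 2 held Y-linked RNA without Xist. The make-up by sex thus varied among the libraries by these transcripts, and its effect cannot be told apart from that of the genotype. Trophoblast and skeletal muscle are rich sources of these imprinted RNAs in the mouse. The 5 trophoblast markers with an amplicon summed to 0.057 and 0 RPM in mutants and 0.108 and 0 RPM in controls, and Tpbpa, Elf5 and Cdx2 had no read in any library. The 8 muscle markers summed to 17.5 and 61.8 RPM in mutants and 52.2 and 27.3 RPM in controls, nearly all of it from Des. Myod1, Pax7 and Ckm were at 0 in all 4 libraries. Myf5 was read in all 4, at 0.229 and 0.337 RPM in mutants and 0.867 and 0.445 RPM in controls. Chrna1 reached 1.93 RPM in control 2, and Myog and Actn2 were at most 0.067 RPM. Bulk values do not separate fewer expressing cells from less RNA per cell.

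Igf2 encodes insulin-like growth factor 2, which drives growth before birth through the receptors Igf1r and Insr. It lies at chr7:142650766-142666816 (minus strand, GRCm38 positions of the gene in GENCODE M21). Igf2 stood at 41.3 RPM in mutant 1 and 134 RPM in mutant 2, against 0.65 RPM in control 1 and 0.074 RPM in control 2. Both mutants were above both controls, where the gene was read 12 times in control 1 and 1 time in control 2, against 721 and 1997 reads in mutants 1 and 2. The ratio of group means was 243-fold, and the log2 difference of RPM + 1 was 5.83 (SE 0.63). That scale understates low genes: with a pseudocount of 5 the difference was 3.91, and on whole reads it was 7.73 by edgeR and 7.80 by DESeq2. The antisense gene Igf2os, which overlaps Igf2 on the other strand and was named after its values were seen, had 4 and 0 reads in mutants and 1 and 0 reads in controls. Whether the panel's counting uses strand is not given in the sources used here.

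H19 encodes a noncoding RNA that is abundant before birth and low in most adult tissues. It lies at chr7:142575529-142578143 (minus strand), with its start 88.7 kb from that of Igf2. H19 stood at 355 RPM in mutant 1 and 1189 RPM in mutant 2, against 3.09 RPM in control 1 and 43.2 RPM in control 2. The groups did not overlap, but the controls were 14-fold apart from each other, control 2 being the higher. The ratio of means was 33.3-fold and the log2 difference 5.60 (SE 1.21). It was 3.88 without control 1 and 7.32 without control 2, the library with 979 RPM of macrophage markers. The part of those cells in the H19 values was not tested.

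**Figure D1:**
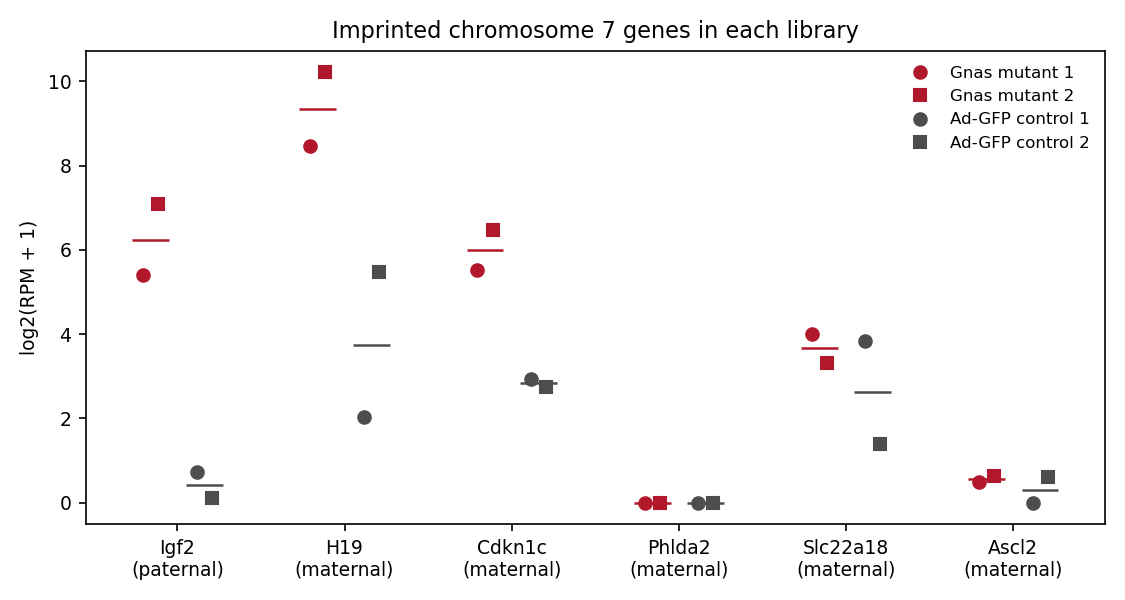
Values of the 6 imprinted chromosome 7 genes with an amplicon in each library. The vertical axis is log2(RPM + 1), red points are Gnas mutants and grey points Ad-GFP controls (circles replicate 1, squares replicate 2), bars are group means (n = 2 each), and the parental copy known to be expressed is given under each name. Igf2, H19 and Cdkn1c lie higher in both mutants than in both controls, while Slc22a18 and Ascl2 overlap and Phlda2 is at 0.

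Cdkn1c encodes p57Kip2, an inhibitor of cyclin-dependent kinases that restrains the cell cycle. It lies at chr7:143458339-143461050 (minus strand). Cdkn1c stood at 45.1 RPM in mutant 1 and 87.4 RPM in mutant 2, against 6.665 RPM in control 1 and 5.71 RPM in control 2. These controls lay close together and below both mutants. The ratio of means was 10.7-fold and the log2 difference 3.15 (SE 0.39).

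Of the other maternally expressed genes followed here, Slc22a18 did not share this pattern. Phlda2 and Ascl2 had too few reads to tell. Slc22a18, a membrane protein gene of the organic cation transporter family at chr7:143473736-143499334 (plus strand), starts 12.7 kb from the start of Cdkn1c. It stood at 15.006 RPM in mutant 1 and 9.025 RPM in mutant 2, against 13.3 RPM in control 1 and 1.63 RPM in control 2. Control 1 lay between the mutants, so the groups overlapped. The log2 difference was 1.05 (SE 0.84), 2.27 without control 1 and -0.17 without control 2, so that its direction rests on control 2.

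Phlda2, which encodes a small pleckstrin homology protein that restrains placental growth, lies at chr7:143501545-143503150 (minus strand). It had no read in any of the 4 libraries, which allows up to 0.172 and 0.202 RPM in mutants and 0.163 and 0.222 RPM in controls. An amplicon that works poorly would give the same value, and this was not tested. Ascl2, a basic helix-loop-helix factor needed for the placenta, lies at chr7:142966829-142969264 (minus strand). Ascl2 had 7 and 8 reads in mutants (0.401 and 0.539 RPM) and 0 and 7 reads in controls (0 and 0.519 RPM), with overlapping groups. Phlda2 and Ascl2 did not reach the level needed to be tested, at least 1 RPM in at least 2 libraries.

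The other 4 genes reached that level and entered the fit over all genes, which gave the SEs above, Igf2 doing so through the mutants alone. Of these 4, 3 had both mutants above both controls, against 30.6% of all 11638 tested genes. Since the genes were chosen on this contrast, nothing is read from that count and no call is given for them. Over all tested genes limma called 2.3% at an adjusted p below 0.05, 1.73% as higher and 0.576% as lower. None of the 11638 genes was called without mutant 1 or without mutant 2, with 805 and 777 at an unadjusted p below 0.05.

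Igf2 and H19 kept nearly the same proportion in the mutants while both differed between them. H19 was 3.35-fold and Igf2 3.26-fold higher in mutant 2 than in mutant 1, and Cdkn1c 1.94-fold. The mutant libraries were otherwise close, with a median absolute log2 difference of 0.23 over tested genes. At least as far apart as H19 were 32 of 11638 tested genes (0.275%), H19 included, and at least as far apart as Igf2 were 40 (0.344%). Among 3872 genes with a mutant mean of at least 50 RPM, a limit set after the values were seen, H19 had rank 4 and Igf2 rank 6 by this difference, and Cdkn1c rank 31. Desmin RNA (Des) was also higher in mutant 2, at 61.2 RPM against 17.2 RPM in mutant 1, while the other 7 muscle markers stayed below 1 RPM in both. The summed endothelial markers stood at 18.3 RPM in mutant 1 and 36.7 RPM in mutant 2 (10.3 and 84.8 RPM in controls). The adipocyte markers summed to 15.5 and 31.6 RPM in mutants (8.18 and 30.3 RPM in controls). Among these, Pparg differed between mutants 1 and 2 (8.36 and 23.6 RPM), while Fabp4 did not (7.10 and 7.07 RPM). The other adipocyte markers were at most 0.471 RPM in the mutants. The part of cells with these markers in the values of H19 and Igf2 was not tested.

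Per 100 H19 reads there were 11.6 Igf2 reads in mutant 1 and 11.3 in mutant 2, against 21.1 in control 1 and 0.172 in control 2. As a share of Igf2 and H19 reads together, Igf2 made up 10.4% (95% Clopper-Pearson interval 9.70 to 11.2) in mutant 1 and 10.2% (9.74 to 10.6) in mutant 2. The share was 17.4% (9.32 to 28.4) in control 1 and 0.171% (0.00434 to 0.95) in control 2. The mutants thus lay between the controls, whose intervals did not overlap. Control 2 had more H19 and less Igf2 than control 1. The proportion compares libraries only, since amplicons of different genes may amplify unequally.

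**Figure D2:**
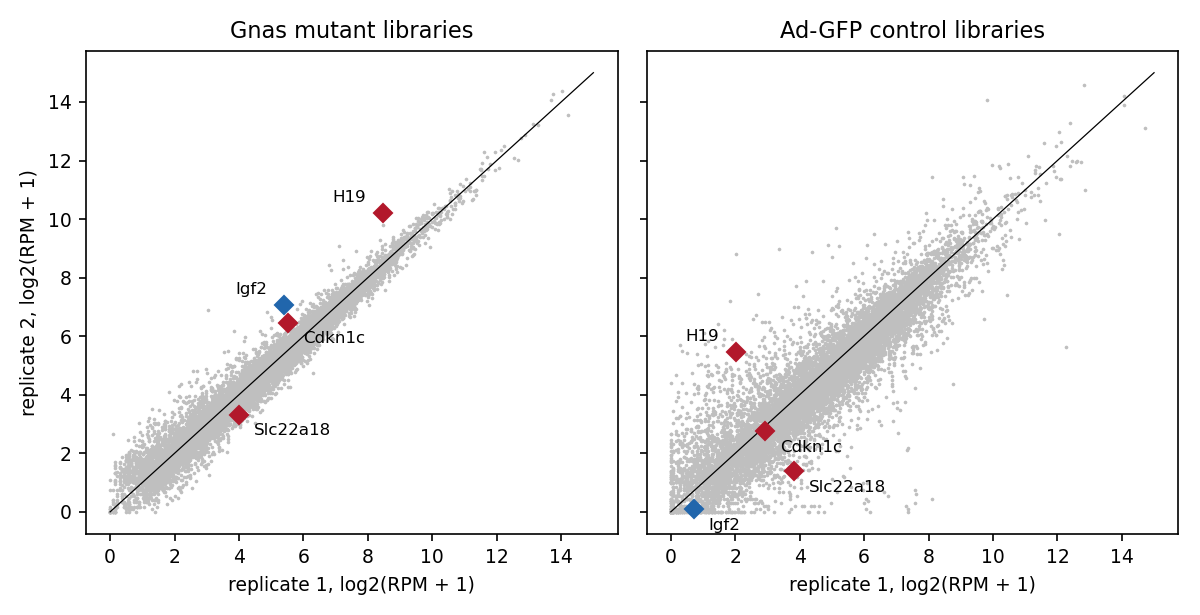
Replicate 2 against replicate 1, both as log2(RPM + 1), for 11638 tested genes (grey) in Gnas mutants (left) and Ad-GFP controls (right), with equal values on the black line. Igf2 (blue) and the maternally expressed H19, Cdkn1c and Slc22a18 (red) are marked: H19 and Igf2 lie 1.74 and 1.68 log2 units above the line between the mutants.

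Among the genes around the domains limma called a pair lower and none higher. The list of 27 chromosome 7 neighbours had 26 amplicons and 17 tested genes. The neighbours were not sorted by parental copy. The comparison by parental copy below therefore leaves all of them out, including any that are imprinted. By limma 0 were higher, 2 were lower and 15 did not pass, against 1.73% of all tested genes called higher and 0.576% called lower. The median log2 difference was -0.14, against 0.08 over all tested genes. The genes that fell were Tnfrsf26 and Tnfrsf23, tumour necrosis factor receptor family genes in a cluster beyond Phlda2.

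Tnfrsf26 stood at 8.59 and 7.41 RPM in mutants, against 53.4 and 46.4 RPM in controls (log2 difference -2.50, SE 0.26, limma adjusted p = 0.0235). Tnfrsf23, which encodes a decoy receptor for the death ligand TRAIL, stood at 73.3 and 56.1 RPM in mutants, against 246 and 324 RPM in controls (-2.12, SE 0.25, limma adjusted p = 0.0306). The third gene of the cluster, Tnfrsf22, stood at 11.2 and 10.9 RPM in mutants and 30.7 and 22.4 RPM in controls and did not pass (limma adjusted p = 0.133). Nor did the troponin gene Tnnt3 (log2 difference 1.81, adjusted p = 0.119) and Lsp1, a leukocyte actin-binding protein gene (1.05, adjusted p = 0.332). Both lie on the far side of H19. The count of neighbours called lower was 0 without mutant 1 or mutant 2, 3 without control 1, 4 without control 2, 1 by edgeR and 3 by DESeq2. The count called higher was 3 without control 1, 1 without control 2 and 1 by DESeq2.

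**Figure D3:**
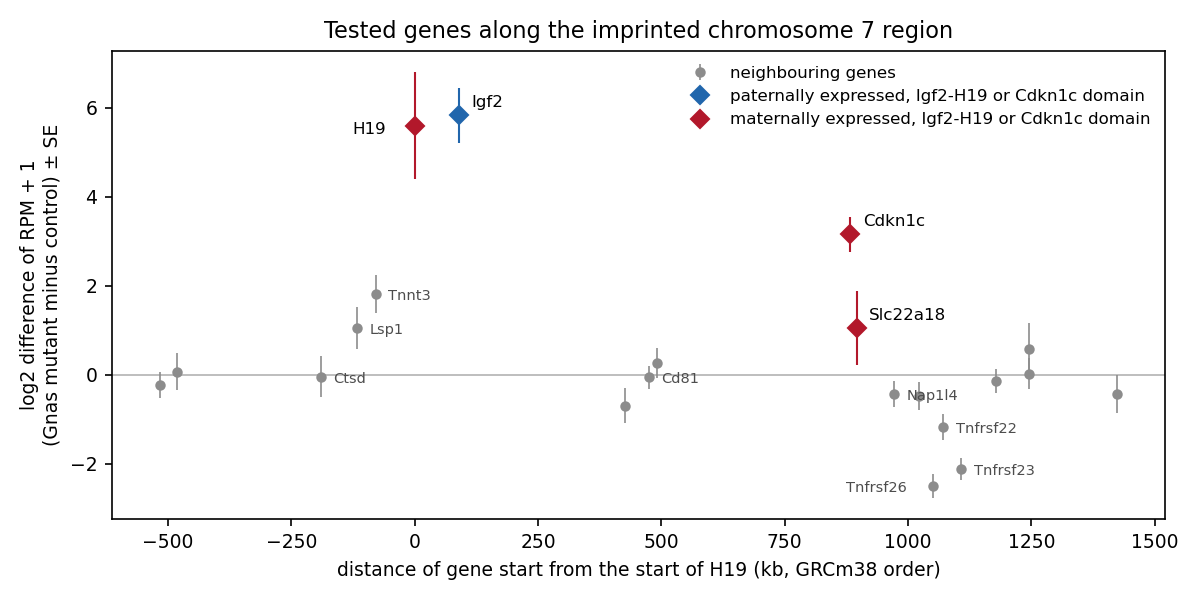
Log2 difference of RPM + 1 (Gnas mutant minus control, ± SE from the fit over all genes) for tested genes, by the distance of each gene's start from that of H19 in kb. Diamonds are the paternally expressed Igf2 (blue) and the maternally expressed H19, Cdkn1c and Slc22a18 (red), and grey circles are 17 neighbours, of which Tnfrsf26 and Tnfrsf23 lie lowest at -2.50 and -2.12.

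Imprinted genes elsewhere in the genome were set side by side by parental copy. Of 24 listed paternally expressed genes 20 had an amplicon and 14 were tested, of which 4 rose, 0 fell and 10 did not pass (limma). Their median log2 difference was 1.12, against 0.08 over all tested genes. Of all tested genes 1.73% were called higher. In 10 of the 14 both mutants were above both controls and in none below, against 30.6% above and 21.1% below over all tested genes. Of 13 listed maternally expressed genes 12 had an amplicon and 9 were tested, of which 3 rose, 0 fell and 6 did not pass, with a median of 1.22. In 6 of the 9 both mutants were above both controls, and in 1 below, beside the same 30.6% and 21.1%. The chromosome 7 neighbours, of which 2 were called lower, are in neither class. The difference between the classes was not tested. Several of these genes were known from earlier results of these data to differ, so the counts are no independent evidence of direction.

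Among the paternally expressed genes Plagl1 is a zinc finger gene whose protein regulates other imprinted genes in the mouse, Igf2, H19 and Cdkn1c among them. Plagl1 stood at 78.5 and 87.8 RPM in mutants, against 0.759 and 0.816 RPM in controls (log2 difference 5.55, SE 0.29, limma adjusted p = 0.0109). Unlike Igf2 and H19 it hardly differed between the mutants, by 0.16 on the log2 scale. Peg3, another zinc finger gene, stood at 165 and 168 RPM in mutants, against 8.94 and 5.04 RPM in controls (4.44, SE 0.31, limma adjusted p = 0.0176). Mest, which encodes a membrane hydrolase-like protein, and Dlk1, which encodes a restrainer of fat cell differentiation, had log2 differences of 8.21 and 8.10 (limma adjusted p = 0.0196 and 0.0229). Their control values were low and apart, with 2 and 45 reads of Mest and 0 and 43 reads of Dlk1 in controls 1 and 2. Neither passed by edgeR (adjusted p = 0.0736 and 0.107). Dlk1 was 350 RPM in mutant 1 and 896 RPM in mutant 2, higher in mutant 2 like Igf2 and H19. Rasgrf1 (2.30, adjusted p = 0.0515), Rtl1 (1.29, adjusted p = 0.13) and Peg10 (1.58, adjusted p = 0.14) did not pass. The count of paternally expressed genes called higher was 0 without either mutant, 10 without control 1, 6 without control 2 and 2 by edgeR.

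Among the maternally expressed genes Zim1, a zinc finger gene beside Peg3, stood at 14.3 and 12.7 RPM in mutants, against 0.921 and 0.074 RPM in controls (log2 difference 3.33, SE 0.42, limma adjusted p = 0.0333). Meg3, the noncoding RNA of the Dlk1 domain, stood at 1539 and 1393 RPM in mutants, against 353 and 491 RPM in controls (1.81, SE 0.27, limma adjusted p = 0.0461). Grb10, an adaptor that restrains insulin and IGF receptors, stood at 415 and 402 RPM in mutants, against 176 and 163 RPM in controls (1.26, SE 0.20, limma adjusted p = 0.0498). Rian (1.22, adjusted p = 0.0741), Mirg (1.32, adjusted p = 0.177) and Igf2r (0.70, adjusted p = 0.257) did not pass. The count called higher was 0 without either mutant, 5 without control 1, 5 without control 2, 0 by edgeR and 1 with TMM or median-of-ratios scaling. The calls of Meg3 and Grb10 ended with either scaling and with no trend (adjusted p = 0.058 and 0.0839). That of Grb10 also ended with the replicate block (adjusted p = 0.052) and with a pseudocount of 0.5 (adjusted p = 0.0528).

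**Figure D4:**
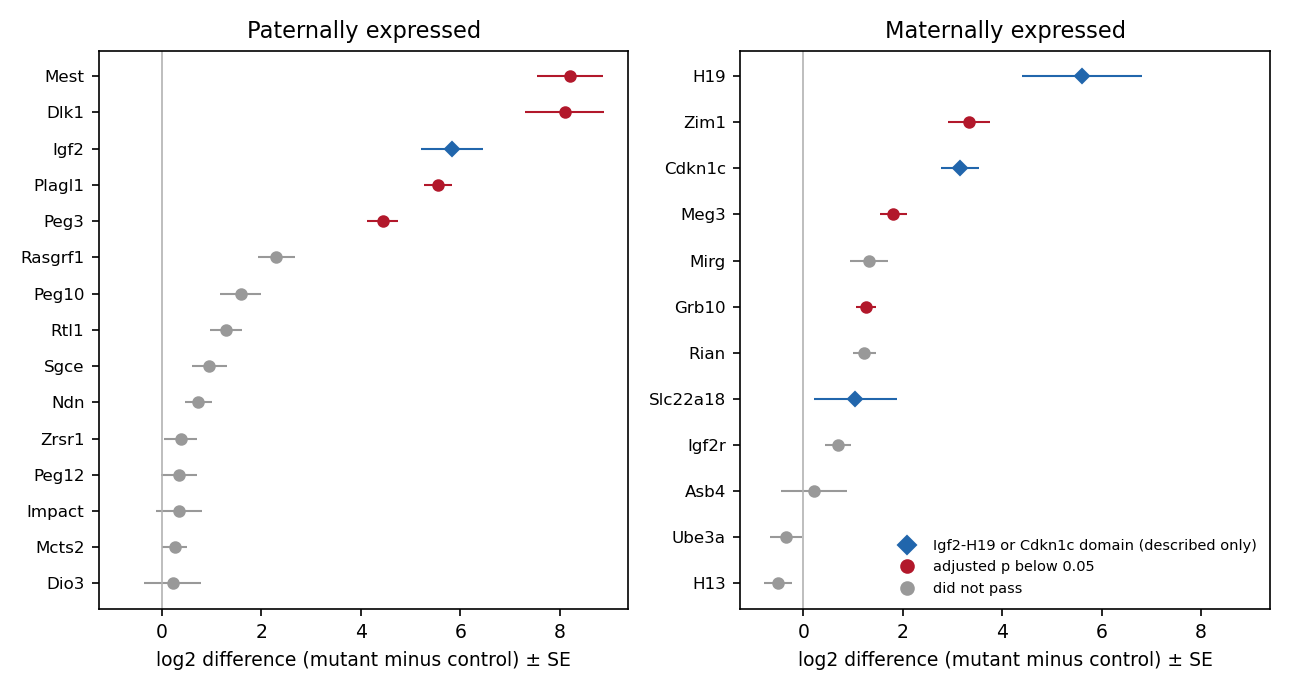
Log2 difference of RPM + 1 (Gnas mutant minus control, ± SE) of tested imprinted genes known as paternally (left) or maternally expressed (right). Blue diamonds are Igf2, H19, Cdkn1c and Slc22a18, which are described without a call, red circles are genes with a limma adjusted p below 0.05 and grey circles genes that did not pass. The medians of the listed genes, 1.12 and 1.22, lie to the right of 0 in both classes.

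Genes that act on the Igf2 protein or its RNA were followed next. Their lists, here and in the next paragraph, were chosen with earlier results of these data known. The counts from these lists are thus no independent evidence of direction. Of 18 tested IGF ligands, receptors and signal carriers 2 rose, 0 fell and 16 did not pass by limma (median 0.27). Of all tested genes 1.73% were called higher and 0.576% lower, with a median of 0.08. Irs1, the docking protein that links the receptors to phosphoinositide 3-kinase, stood at 228 and 304 RPM in mutants, against 22.0 and 26.6 RPM in controls (log2 difference 3.39, SE 0.25, limma adjusted p = 0.0176). The other was Grb10. The receptor gene Igf1r stood at 236 and 240 RPM in mutants and 223 and 206 RPM in controls, and did not pass (limma adjusted p = 0.731). Igf2r, whose product carries Igf2 to lysosomes, stood at 372 and 393 RPM in mutants and 284 and 194 RPM in controls. Pik3r1 (1.68, adjusted p = 0.057), Grb14 (1.02, adjusted p = 0.103) and Foxo3 (0.77, adjusted p = 0.168) did not pass. The count called higher was 0 without either mutant, 6 without control 1, 5 without control 2 and 1 by edgeR.

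Of 13 tested genes for IGF-binding proteins, their regulators and Igf2 RNA-binding proteins 2 rose, 0 fell and 11 did not pass by limma (median 0.76). These stand beside 1.73% called higher, 0.576% called lower and a median of 0.08 over all tested genes. Igfbp2 stood at 233 and 282 RPM in mutants, against 26.9 and 14.7 RPM in controls (log2 difference 3.62, SE 0.34, limma adjusted p = 0.0214). Igfbp4 stood at 816 and 1072 RPM in mutants, against 158 and 108 RPM in controls (2.83, SE 0.29, limma adjusted p = 0.0229). Both proteins bind IGFs outside the cell. Igfbp5 (2.10, adjusted p = 0.0713) and the genes of the Igf2 RNA-binding proteins Igf2bp3 (1.82, adjusted p = 0.0747) and Igf2bp1 (1.64, adjusted p = 0.131) did not pass. Both mutants were above both controls in 7 of the 13 genes and below in 2, against 30.6% and 21.1% of all tested genes. Igf2bp2 was lower, at 74.5 and 87.0 RPM in mutants and 130 and 145 RPM in controls. Pappa was lower, at 94.6 and 99.7 RPM in mutants and 367 and 165 RPM in controls. Both are outside the naming rule, and neither passed (limma adjusted p = 0.157 and 0.189). The count called higher was 0 without either mutant, 6 without either control and 4 by DESeq2. The count called lower was 3 without either control and 2 by DESeq2.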

How the data were processed

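RNA of 4 libraries was measured with the mouse Ion AmpliSeq Transcriptome panel, with complementary DNA made by SuperScript VILO and libraries prepared on an Ion Chef, per the labels' protocols. The deposited table gives RPM, reads per amplicon scaled by the authors to the total of each library. For the aligner, the counter, the build and any filter, the sources used here give nothing. Gene symbols were taken from the amplicon names, since 27 gene names had been turned into dates. The step between low RPM values gave whole reads for 100% of non-zero values within 0.02 read.

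A gene entered the fit if 2 or more libraries reached 1 RPM. The fit used limma 3.58.1 in R 4.3.3 (trend, two-sided, Benjamini-Hochberg over 11638 genes, threshold 0.05) on log2(RPM + 1). With 2 libraries a group, a p-value reflects the spread among these libraries alone, which may be technical. The smallest two-sided p of an exact permutation test would be 0.333, so none was run. Counting intervals are 95% Clopper-Pearson intervals and cover counting error only, since amplicon reads are not independent molecules. Alternatives were 2 pseudocounts, 2 filters, 3 scalings, a fit with no trend, the replicate number as a block, leaving out each library, edgeR 4.0.16 and DESeq2 1.42.0 on the whole reads.

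The genes, the 9 gene lists and 11 marker lists, and the rule for named genes were chosen with earlier results of these data known. From each list the text names up to 6 genes past the threshold and the next 3 by p, with Igf2r, Igf1r, Plagl1 and Ctcf always, and 4 nearest profiles each for Igf2, H19 and Cdkn1c. The fit was also run on simulated reads with known changes and the same spread in both groups. That run cannot show how the fit does with controls further apart than the mutants. Gene positions are those of GENCODE M21 (GRCm38) by symbol, not of the amplicons. Tables and figures used Python 3.11.15, numpy 2.4.6, pandas 2.3.3, scipy 1.17.1 and matplotlib 3.10.9.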

Additional observations from a re-analysis of the deposited data

How the results depend on the processing

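With 2 libraries a group, and controls far apart, counts of calls depend strongly on the library left out. The main counts were 201 genes higher and 67 lower. No filter on low values gave 56 and 18, edgeR 66 and 27, and DESeq2 598 and 493. Leaving out 1 library gave 0 to 1609 genes higher and 0 to 802 lower (0 without either mutant). The replicate numbers are not stated to pair libraries. Same-numbered libraries deviated from their group means together only weakly (r = 0.164 over genes). With 2 libraries a group both pairs give this same value. With the replicate block 301 genes were higher and 123 lower. Chromosome 7 neighbours called lower (2) ranged from 0 to 4 with 1 library left out and were 1 with no filter and 1 by edgeR. Paternally expressed genes called higher (4) ranged from 0 to 10 and were 2 by edgeR. Maternally expressed genes called higher (3) ranged from 0 to 5, were 0 with no filter and 0 by edgeR, and were 1 with TMM, 1 with median-of-ratios scaling and 1 with no trend. Where no cause is named, the cause was not tested.

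The log2 differences of Igf2 (3.91 to 7.80), H19 (3.88 to 7.32) and Cdkn1c (2.61 to 3.62) stayed above 0 in all 15 alternatives, and that of Slc22a18 (-0.17 to 2.27) in 14. Igf2 against H19, as a difference of log2 differences, was 0.23. It was 0.83 with a pseudocount of 0.5 and -1.15 with a pseudocount of 5, so its sign changed with the pseudocount. By edgeR it was 2.79, by DESeq2 2.89, and with 1 library left out -1.80 to 2.26. The cause of these shifts was not tested further. Quantile normalization took the median log2 difference of all genes to -0.03, against 0.08 as deposited. Depth limits the value of Igf2 in the controls, with 12 and 1 reads, and that of Ascl2, with at most 8 reads a library.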

Other observations

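Relatives and partners of Cdkn1c were followed in 2 lists. Of all 11638 tested genes limma called 2.3%, and 2080 were at an unadjusted p below 0.05. None of the 7 other tested inhibitors of cyclin-dependent kinases passed by limma (1 at an unadjusted p below 0.05, 0 by edgeR and 0 by DESeq2). The nearest were Cdkn2a (log2 difference 0.95, adjusted p = 0.217), Cdkn1b (0.93, adjusted p = 0.426) and Cdkn2b (0.39, adjusted p = 0.516). Cdkn1a, the p21 gene, is outside the naming rule and was picked knowing its values. It stood at 1081 and 1046 RPM in mutants and 1074 and 847 RPM in controls (0.16, adjusted p = 0.795). Without control 1 the calls were 2 higher and 1 lower. None of 17 tested cyclin, kinase and proliferation genes passed either (limma, 6 at an unadjusted p below 0.05, 0 by edgeR and 3 by DESeq2). Nearest were Rb1 (1.52, adjusted p = 0.0701), Ccnd3 (1.55, adjusted p = 0.129) and Ccnd2 (0.88, adjusted p = 0.143). The controls were far apart for some of the list, such as Mki67 (1.3 and 8.68 RPM) and Ccna2 (8.24 and 70.2 RPM). They were close for others, such as Cdk2 (71.0 and 70.8 RPM). Mki67, Ccna2 and Cdk2 are outside the naming rule. Without control 1 the calls were 4 higher and 1 lower, without control 2 they were 7 higher, and with the replicate block 1 higher.

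Genes that keep or read imprints were followed next. Over all 11638 tested genes the limma values are again 2.3% called and 2080 at an unadjusted p below 0.05. None of 21 tested genes for imprint maintenance and chromatin passed by limma (5 at an unadjusted p below 0.05, 0 by edgeR and 1 by DESeq2). Ctcf, the insulator protein gene, stood at 48.2 and 43.0 RPM in mutants and 37.8 and 35.0 RPM in controls (limma adjusted p = 0.517). Nearest to the threshold were Dnmt3l, a cofactor of DNA methyltransferases (0.745 and 0.404 RPM in mutants, 7.42 and 3.56 RPM in controls, limma adjusted p = 0.107), and the methylcytosine dioxygenase genes Tet1 (log2 difference 1.60, adjusted p = 0.146) and Tet3 (0.79, adjusted p = 0.177). Without control 1 the calls were 2 higher and 1 lower, and likewise without control 2. Of 5 tested relatives of Phlda2, Ascl2 and Slc22a18 none passed by limma (2 at an unadjusted p below 0.05, 0 by edgeR and 0 by DESeq2, 1 higher without control 1). Nearest were Slc22a4 (-1.59, adjusted p = 0.149), Slc22a17 (1.03, adjusted p = 0.186) and Phlda3, which stood at 298 and 371 RPM in mutants and 244 and 217 RPM in controls (0.53, adjusted p = 0.307).

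The nearest profiles were found by the Euclidean distance between centred log2(RPM + 1) values over the 4 libraries, as a description. Nearest to Igf2 were Eln (distance 1.00), Plagl1 (1.204), Fmod (1.31) and Wfdc1 (1.35). Eln, the elastin gene, stood at 30.8 and 76.5 RPM in mutants and 1.3 and 0.222 RPM in controls. It thus shared with Igf2 the higher value in mutant 2 and in control 1. Nearest to H19 were Gfra2 (0.935), Sorbs2 (1.14), Rspo2 (1.56) and Steap4 (1.88). Gfra2, a receptor gene for neurotrophic factors, stood at 78.5 and 137 RPM in mutants and 0.054 and 10.0 RPM in controls, with control 2 the higher control as for H19. Nearest to Cdkn1c were Cbr2 (0.177), Ppfia4 (0.196), Kcnd3 (0.266) and Adamts18 (0.283), all at 5.04 to 13.3 RPM in the mutants and at most 0.074 RPM in the controls. Cdkn1c itself stood at 6.665 and 5.71 RPM in the controls. These genes are thus near it on the log2(RPM + 1) scale and not in the ratio between the groups. Profiles over 4 libraries in 2 groups are alike for many genes.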
